A study of Homo sapiens with 6 samples.

Results

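The 9 genes described here are transcripts that cell biologists read as regulators or markers of senescence: the cyclin-dependent kinase inhibitors CDKN1A, CDKN1B, CDKN2A, CDKN2B and CDKN2C, their downstream target RB1, the lysosomal enzyme GLB1, the nuclear lamina gene LMNB1 and the chromatin protein HMGB1. They were chosen by gene symbol, with earlier results of these data known, and they are 9 of 20461 genes listed with an Ensembl identifier. All 9 passed the filter on low counts and are among the 13645 genes tested. The cells were ARPE-19, a line of human retinal pigment epithelium, transduced with lentivirus at a multiplicity of infection of 10 and selected in 4 µg/ml puromycin. The control group (n = 3 libraries) carried control lentivirus, and the PDZK1 group (n = 3 libraries) carried lentivirus for overexpression of PDZK1, a scaffold protein with PDZ domains. Cells of both groups were held in 37.5 mM glucose for 48 h, so the comparison concerns PDZK1 within high glucose and not glucose itself. The study asked whether PDZK1 changes senescence of these cells, and the transcripts below include those of proteins used to score it. Nothing in the labels says that the 3 libraries of a group came from separate cultures, so p-values measure the spread between these libraries, which may be technical.

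Senescence is a lasting exit from the cell cycle. CDKN1A (p21), which p53 induces, and CDKN1B (p27) bind cyclin-CDK complexes, whereas the INK4 proteins from CDKN2A (p16), CDKN2B (p15) and CDKN2C (p18) bind CDK4 and CDK6. With these kinases blocked, RB1 stays hypophosphorylated and holds E2F factors, and the genes of DNA replication and mitosis that E2F drives stay low. Lysosomal β-galactosidase from GLB1 gives the senescence-associated stain, lamin B1 from LMNB1 is lost in many senescent cells, and HMGB1 leaves the nucleus and is secreted. RNA levels do not report phosphorylation or the place of a protein in the cell.

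Shared sequence bears on how these genes were counted. CDKN2A and CDKN2B lie side by side on chromosome 9 and have similar coding sequences. Of all stretches of 50 bases in the coding sequence, 6.86% for CDKN2A and 8.49% for CDKN2B were identical in the other gene (GENCODE 29 on GRCh38). The longest identical run was 80 bases, in coding sequences of 501 bases for CDKN2A and 414 for CDKN2B. Some reads of either gene could therefore be assigned to the other. CDKN2A has 10 coding transcripts, which include those of p16 and of ARF, whose start sites in RefSeq lie 20467 bases apart. The counts per gene add these transcripts together and do not give p16 alone.

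CDKN2C shared at most 11 identical bases with CDKN2A or CDKN2B. CDKN1A and CDKN1B shared at most 12, which lie in the N-terminal part that encodes the conserved cyclin-CDK binding domain of this family (positions 60 to 71 of the coding sequence of CDKN1A-201 and 93 to 104 of CDKN1B-202). The pair is shown to set how little these inhibitors have in common in sequence, 5′ to 3′, with the shared run in capitals.
CDKN1A: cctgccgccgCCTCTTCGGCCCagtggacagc
CDKN1B: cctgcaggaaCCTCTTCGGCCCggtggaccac
No stretch of 50 bases of either was found in a transcript of another gene, and the same held for CDKN2C, RB1, GLB1 and LMNB1. HMGB1 was the exception. Of its coding stretches of 50 bases, 83.2% occurred in transcripts of other genes (16 genes, led by processed pseudogenes such as HMGB1P5 and HMGB1P6). GENCODE lists 48 numbered HMGB1 pseudogenes, of which only HMGB1P1 has a row in these tables, with 0 to 9 counts per library, so the HMGB1 count is uncertain.

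Total counts per library ran from 27970618 to 32804567, which places the floor, the 3 counts that an observed 0 still allows, at 0.0915 to 0.107 CPM (counts scaled to library size). All 9 genes lay far above it. PDZK1 (ENSG00000174827), the check of the labels, had 18 to 23 counts per control library and 2541 to 3020 per PDZK1 library. On the second principal component (21.1% of the variance) control replicate 3, which also has the lowest total, stood at -29.99 against 14.45 and 18.79 for the other controls, so each result is also given without it where that changes a call. Of the markers of pigment epithelium, RPE65, TYR and TTR were at or under the floor in every library, while 11 of 15 could be tested, and their summed level was 1080 to 1242 FPKM (fragments scaled by transcript length and library size) in control and 1138 to 1283 FPKM in PDZK1 libraries. KRT8 (531 to 613 FPKM) and KRT18 (452 to 535 FPKM) carried that sum, and BEST1 varied widely between libraries, from 0.940 to 77.5 FPKM (log2 fold change 4.55, edgeR adjusted p 0.420). No gene of this list or of the melanocyte, endothelial, leukocyte, neuronal and fibroblast lists passed the threshold. PTPRC, CDH5, CRX, COL1A2 and DCN were at or under the floor in all 6 libraries, whereas other genes of these lists were expressed: CD68 of the leukocyte list at 66.5 to 85.8 FPKM, TUBB3 of the neuronal list at 54.3 to 73.2 FPKM, and PDGFRB and COL1A1 of the fibroblast list at 10.4 to 13.7 and 0.511 to 1.27 FPKM.

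Between the groups, 0 of the 9 genes passed the threshold (edgeR quasi-likelihood test, two-sided, Benjamini-Hochberg adjusted p under 0.05 over all 13645 genes), against 3.83% of all genes tested (1.41% higher and 2.41% lower). At an unadjusted p under 0.05 there were 2, CDKN1A and GLB1, against 17.5% of all genes. By DESeq2 1 was called, CDKN1A, against 5.81%. The control and PDZK1 libraries did not overlap in CPM for 1 of the 9, CDKN1A, against 23.9% of all genes. In sign, 3 values lay above 0 and 6 below (CDKN2C and HMGB1 lay above 0 with library totals only), with a median log2 fold change of -0.012, and the median of all genes was -0.00025. The 95% interval of the fold change lay inside 1.2-fold in either direction for 5 of the 9 (CDKN1A, CDKN2B, CDKN1B, RB1 and HMGB1) and inside 1.5-fold for 8, CDKN2A being the exception.

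**Figure D1:**
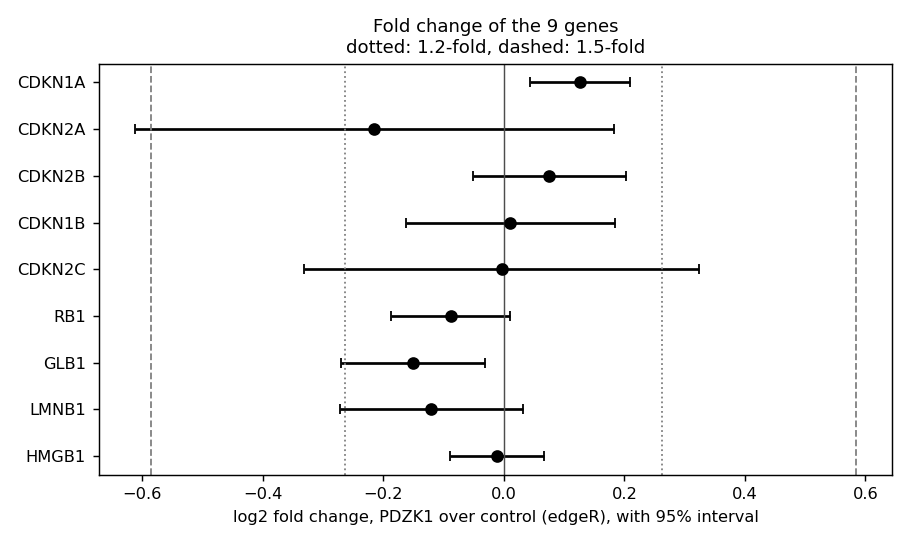
Log2 fold change of each gene (PDZK1 over control, edgeR, points) with its 95% interval (bars), the dotted lines marking 1.2-fold and the dashed lines 1.5-fold. The intervals of CDKN1A and GLB1 exclude 0, on opposite sides, and that of CDKN2A is the only interval to cross 1.5-fold.

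CDKN1A (ENSG00000124762, chromosome 6, 36676460 to 36687339, plus strand) encodes p21, the inhibitor that halts the cycle after p53 is activated. Its level was 506.5, 522 and 542 CPM in control and 574, 572.5 and 568 CPM in PDZK1 libraries. Every PDZK1 library was above every control library, and the 3 PDZK1 values lay closer together than the controls (coefficient of variation 0.568% against 3.42%, where counting error alone gives 0.738% and 0.795%). The mean went from 523.7 ± 17.9 to 571.4 ± 3.24 CPM (SD, n = 3 each), a difference of 9.12% (95% interval 3.03% to 15.6%). The log2 fold change was 0.13 (SE 0.037, edgeR adjusted p 0.103, DESeq2 adjusted p 0.0437). Without control replicate 3 the log2 fold change was 0.15 and edgeR called it (adjusted p 0.0167), where 6.32% of all genes were called. The long noncoding RNA DINOL overlaps CDKN1A on the opposite strand.

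The 250 bases before the start that RefSeq gives for CDKN1A, which lies inside the longer GENCODE span above, are shown because this is the most abundant of the 9 transcripts and the only gene whose groups did not overlap. The sequence is from RefSeq (GRCh38.p14, chr6:36678464-36678713, plus strand), and capitals mark GGGCGG, the core of the GC box that Sp1-type factors bind.
CDKN1A upstream: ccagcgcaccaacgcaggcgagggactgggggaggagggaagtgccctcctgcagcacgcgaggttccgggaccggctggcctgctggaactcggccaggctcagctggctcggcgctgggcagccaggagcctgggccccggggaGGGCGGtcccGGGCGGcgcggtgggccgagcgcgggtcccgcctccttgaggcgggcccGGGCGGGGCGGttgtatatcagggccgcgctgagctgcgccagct
GGGCGG occurs 4 times here, 2 of them overlapping, in a window of 76.4% G and C. On either strand, in windows from 250 bases before to 50 after the start, it was found for 8 of the 9 genes (10 of 15 RefSeq windows) and in 45.0% of all 35116 such windows. TATAAA was in 0 of the 15 windows, against 11.5% of all, and the E2F motif TTTNGCGC was in 0 of 15, against 1.79%. The CACGTG box was found for CDKN2C and LMNB1, in 3 of the 15 windows, and in 7.26% of all windows. The only window listed for RB1 lies inside the gene, far from the start that GENCODE gives, so the 5′ end of RB1 was not searched. These matches describe letters in a window and not bound sites.

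CDKN1B (ENSG00000111276, chromosome 12, 12715058 to 12722371, plus strand), which encodes p27, had the same mean in both groups within its spread. Its level was 63.2, 62.2 and 74.7 CPM in the control and 70.1, 68.9 and 62.6 CPM in the PDZK1 libraries. The groups overlapped fully, and the highest library was control replicate 3. The difference was 0.726% (95% interval -10.7% to 13.6%), a log2 fold change of 0.010 (SE 0.077, edgeR adjusted p 0.967).

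The INK4 genes are the class for which p16 is the usual marker. CDKN2A (ENSG00000147889, chromosome 9, 21967753 to 21995301, minus strand) had 186, 151 and 163 counts in the control and 116, 174 and 169 counts in the PDZK1 libraries, or 5.76, 4.89 and 5.91 CPM against 3.62, 5.31 and 5.33 CPM. PDZK1 replicate 1 was low, and the other PDZK1 libraries lay inside the range of the controls. On the log2 scale the difference was -0.21 (95% interval -0.61 to 0.18, SE 0.18, edgeR adjusted p 0.596), and -0.051 without PDZK1 replicate 1. Counting error alone gives a coefficient of variation of 7.75% in the control and 8.09% in the PDZK1 group, against 9.97% and 20.6% observed.

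CDKN2B (ENSG00000147883, chromosome 9, 22002903 to 22009363, minus strand), which encodes p15 and is induced by TGF-β, was counted more deeply than its neighbour, with 1541 to 2114 counts per library. Its level was 62.1, 63.3 and 55.9 CPM in control and 64.0, 64.5 and 62.5 CPM in PDZK1 libraries. Only control replicate 3 was clearly lower than the rest. The difference was 5.37% (95% interval -3.53% to 15.1%, edgeR adjusted p 0.554), and the log2 fold change of 0.075 (SE 0.057) was 0.022 without control replicate 3. Annotated genes on the opposite strand, CDKN2B-AS1 (ANRIL) and AL359922.1, overlap both CDKN2A and CDKN2B, and with strandedness not given in the sources used here their reads cannot be told apart.

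CDKN2C (ENSG00000123080, chromosome 1, 50960745 to 50974633, plus strand), which encodes p18, was at 9.32, 10.6 and 11.4 CPM in control and 11.4, 11.6 and 8.17 CPM in PDZK1 libraries. The lowest and the highest library both belonged to the PDZK1 group. The log2 difference was -0.0032 (95% interval -0.33 to 0.32, SE 0.15, edgeR adjusted p 0.997), and 0.14 without PDZK1 replicate 3.

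**Figure D2:**
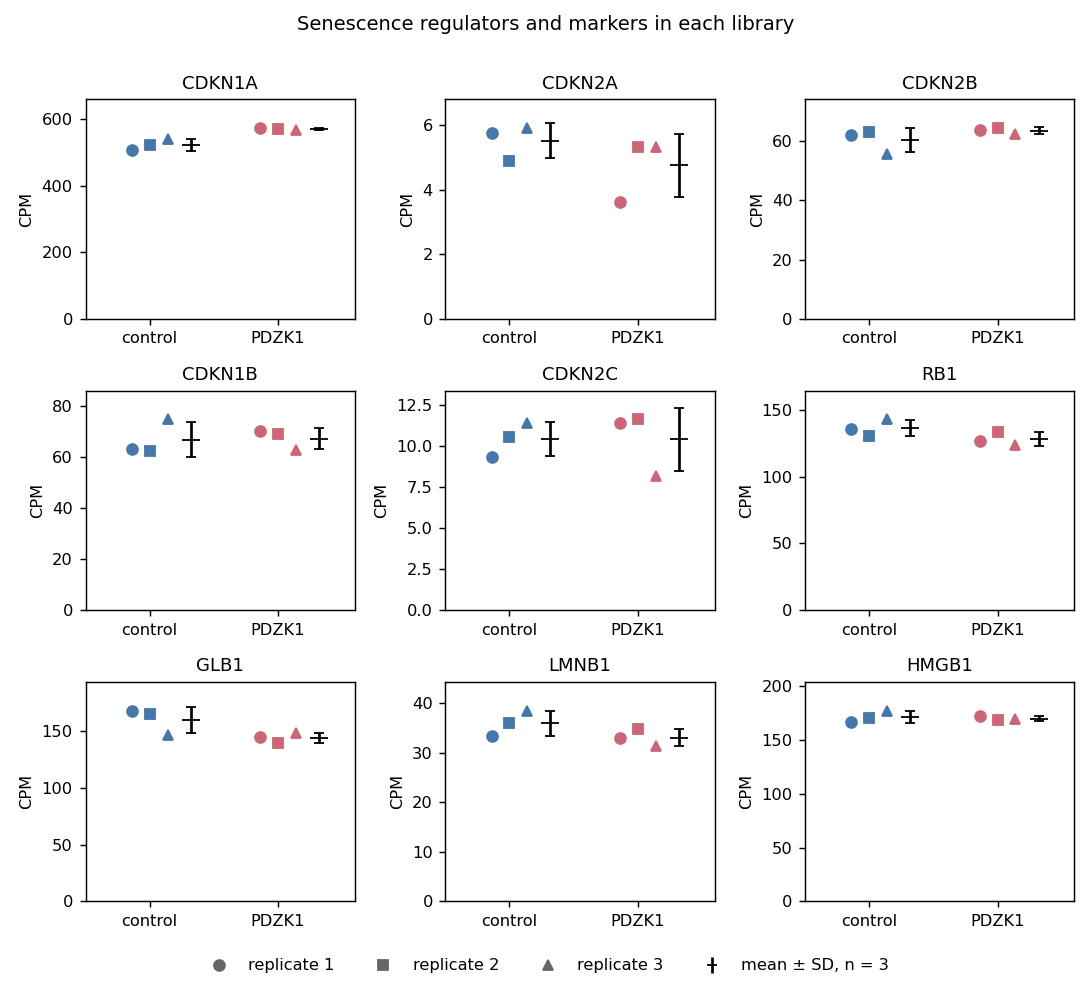
Level of each gene in CPM (vertical axes from 0) in the 3 control (blue) and 3 PDZK1 (red) libraries, with symbols for replicates and black marks for the mean ± SD (n = 3). Only the CDKN1A panel shows groups that do not overlap, and CDKN2A and CDKN2C each have 1 low PDZK1 library.

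RB1 (ENSG00000139687, chromosome 13, 48303726 to 48599436, plus strand) encodes the pocket protein on which all of these inhibitors converge. It was at 135.5, 131 and 143 CPM in control and 127, 134 and 124 CPM in PDZK1 libraries. PDZK1 replicate 2 lay among the controls. The difference was -5.94% (95% interval -12.1% to 0.696%), a log2 fold change of -0.088 (SE 0.044, edgeR adjusted p 0.343). RCBTB2 on the opposite strand within the RB1 span had 381 to 460 counts per library, against 3935 to 4384 for RB1.

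GLB1 (ENSG00000170266, chromosome 3, 32996608 to 33097230, minus strand) encodes the enzyme behind the β-galactosidase stain. Its level was 168, 165.5 and 146 CPM in control and 145, 139 and 148 CPM in PDZK1 libraries. Control replicates 1 and 2 were above every PDZK1 library, and control replicate 3 lay inside the PDZK1 range. The mean went from 160.0 ± 11.8 to 144.1 ± 4.40 CPM (SD, n = 3 each), a difference of -9.96% (95% interval -17.1% to -2.19%), with a log2 fold change of -0.15 (SE 0.053, edgeR adjusted p 0.170). Without control replicate 3 it was -0.21 and passed the threshold (adjusted p 0.00616). TMPPE, on the same strand within the GLB1 span, had 91 to 176 counts per library.

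LMNB1 (ENSG00000113368, chromosome 5, 126776623 to 126837020, plus strand) encodes lamin B1, the filament that lines the inner nuclear membrane. It was at 33.5, 36.0 and 38.5 CPM in control and 33.02, 34.8 and 31.4 CPM in PDZK1 libraries. The ranges overlapped through control replicate 1 and PDZK1 replicate 2. The difference was -7.99% (95% interval -17.2% to 2.25%), a log2 fold change of -0.12 (SE 0.068, edgeR adjusted p 0.409), and -0.070 without control replicate 3.

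HMGB1 (ENSG00000189403, chromosome 13, 30456704 to 30617597, minus strand) encodes a DNA-bending chromatin protein that acts as an alarm signal outside the cell. Its level was 167, 170 and 177 CPM in control and 172, 168 and 169 CPM in PDZK1 libraries, the smallest spread over the 6 libraries among the 9 genes. The PDZK1 range lay inside the control range. The difference was -0.819% (95% interval -6.02% to 4.67%), a log2 fold change of -0.012 (SE 0.035, edgeR adjusted p 0.904). In bulk RNA of this kind, fewer cells that express a gene and less RNA per cell cannot be told apart, here and for the other 8 genes.

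**Figure D3:**
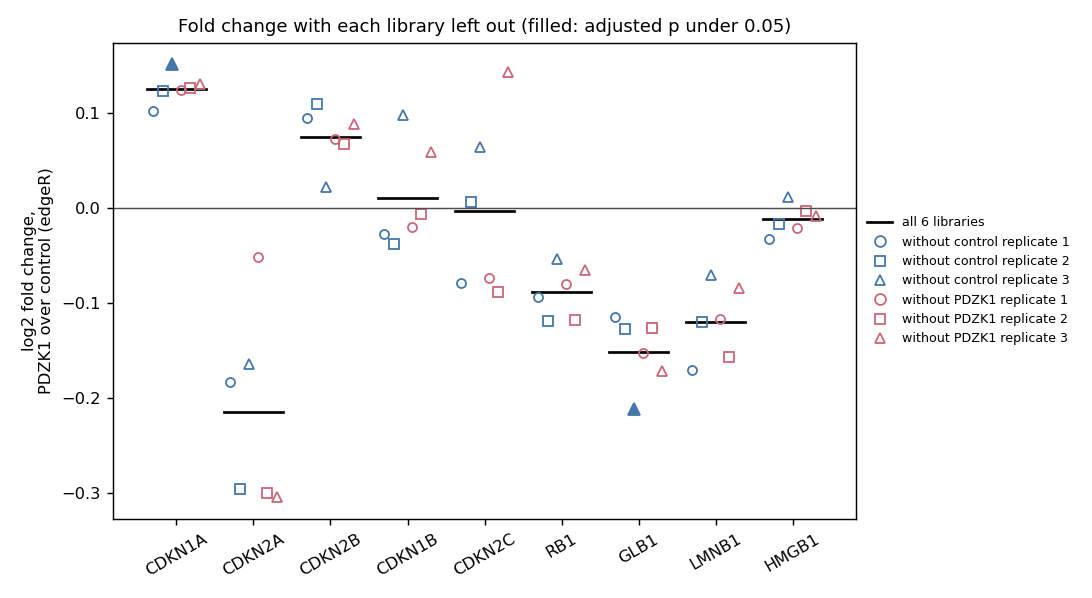
Log2 fold change (PDZK1 over control, edgeR) of each gene with all 6 libraries (black line) and with each library left out in turn (blue for control, red for PDZK1 libraries), filled where the adjusted p is under 0.05. The only filled points are CDKN1A (0.15) and GLB1 (-0.21) without control replicate 3.

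Per transcript length the genes span a wide range. In mean FPKM over the 6 libraries the order was CDKN1A at 238.2, GLB1 at 56.1, HMGB1 at 50.7, RB1 at 25.7, CDKN1B at 23.1, CDKN2B at 15.0, LMNB1 at 11.0, CDKN2A at 4.95 and CDKN2C at 4.92. CDKN1A was 4.25 times GLB1 and above 98.5% of all genes tested, whereas CDKN2A and CDKN2C were above 36.6% and 36.5%. Neighbours in this order with overlapping ranges were GLB1 and HMGB1 (GLB1 higher in 5 of 6 libraries), RB1 and CDKN1B (RB1 higher in 6 of 6) and CDKN2A and CDKN2C (CDKN2A higher in 3 of 6). All other neighbours kept their order with no overlap of their ranges. The HMGB1 level includes whatever reads its pseudogenes contribute.

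CDKN1A dominated the inhibitor transcripts. Of the summed FPKM of the 5 inhibitors, it took 82.7% ± 0.314 in control and 83.8% ± 0.437 in PDZK1 libraries (SD, n = 3 each). CDKN1B took 8.29% ± 0.654 and 7.85% ± 0.366, and CDKN2B 5.31% ± 0.521 and 5.17% ± 0.0168. CDKN2A, the source of p16, took 1.91% ± 0.212 and 1.56% ± 0.279, and CDKN2C 1.78% ± 0.132 and 1.66% ± 0.219. The CDKN1A share was 82.5% to 83.1% in control and 83.4% to 84.2% in PDZK1 libraries, ranges that did not overlap, in which the CDKN1A difference itself takes part.

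**Figure D4:**
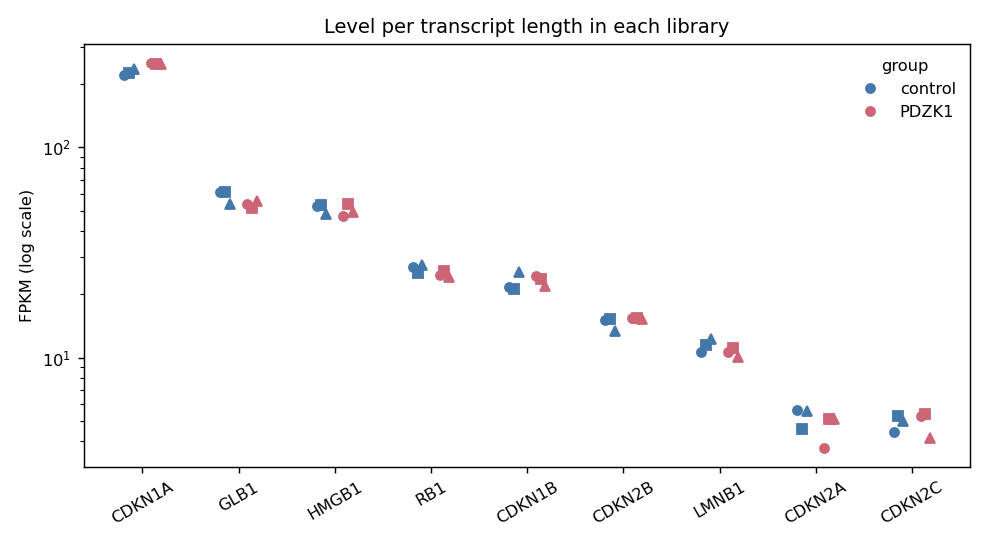
FPKM of each gene in each library (log axis, symbols for replicates 1 to 3 as circle, square and triangle), control in blue and PDZK1 in red, ordered by mean. CDKN1A stands at 220 to 251 FPKM, while CDKN2A and CDKN2C lie between 3.72 and 5.62 FPKM.

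Around these genes, 13 lists of partners were counted in the same test. They hold 117 genes, of which 115 were tested and 5 passed the threshold (4.35%, against 3.83% of all genes), with 2 higher and 3 lower. The median log2 fold change of the 115 was -0.032.

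Upstream of CDKN1A, the list of 9 p53 pathway genes had 0 called, with 5 above and 4 below 0 and a median of 0.029 (0.0051 to 0.050 with a library left out). Its smallest p was that of MDM2, the ubiquitin ligase and p53 target that limits p53, at 312, 303 and 341 CPM in control and 350.4, 374.7 and 361.0 CPM in PDZK1 libraries. The groups did not overlap, and the log2 fold change was 0.18 (SE 0.049, edgeR adjusted p 0.0734). By DESeq2 it passed (adjusted p 0.0204), and by edgeR it passed without control replicate 3 (adjusted p 0.00333). The groups of CDKN1A likewise lay apart with the PDZK1 libraries higher. Such separation was found for 3 of the 9 p53 pathway genes, against 23.9% of all genes. The others besides MDM2 were USP7, also higher in PDZK1 libraries, and TP53BP1, which was lower. CPM, the gene for carboxypeptidase M, overlaps MDM2 on the opposite strand.

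For the INK4 genes, the 10 polycomb repressors (0 called, median 0.038, and 0.0092 to 0.057 with a library left out) and the 6 activators (0 called, median -0.024, and -0.052 to -0.0080 with a library left out) gave no called gene in either direction. EED, a subunit of the polycomb complex that silences the INK4 locus, was at 0.12 (adjusted p 0.560), and ETS2, an activator of CDKN2A, at -0.18 (adjusted p 0.172). Among the 6 genes of p27 turnover (0 called, median -0.081), the ubiquitin ligase subunit SKP2 was at 26.3 CPM in control and 22.8 CPM in PDZK1 libraries, a log2 difference of -0.21 (adjusted p 0.119). The list labelled other CDK inhibitors also holds genes that are not such inhibitors. Its 3 tested genes were CDKN2D, the phosphatase CDKN3 and CDKN2AIP, with CDKN1C too low to test. Their median of -0.086 is the value of CDKN2D, and CDKN3 was at -0.16 (adjusted p 0.579). With each library left out in turn, the median of p27 turnover ran from -0.075 to 0.0041 (above 0 without PDZK1 replicate 2). That of the list labelled other CDK inhibitors ran from -0.24 to 0.0064 (above 0 without PDZK1 replicate 3), and CDKN3 from -0.26 to -0.036.

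On the side that the inhibitors act on, the list labelled G1 cyclins and CDKs (9 tested, 0 called) had a median of -0.14. It ran from -0.12 to -0.059 with a library left out. The list also holds the later cyclin CCNA2 (-0.14) and the phosphatase CDC25A (-0.20), so the median does not describe G1 cyclins and kinases alone. Cyclin D1 lay above 0. CCND1 was at 727, 795 and 822 CPM in control and 868, 990.3 and 835 CPM in PDZK1 libraries, with no overlap and a log2 difference of 0.20 (SE 0.071, edgeR adjusted p 0.192). The RB and E2F family (12 tested, 0 called) had a median of 0.015, E2F1 lying at -0.25 (adjusted p 0.307). In the DREAM and MuvB complex (7 tested, 0 called, median -0.011) the smallest p was that of MYBL2, an E2F target that joins MuvB in dividing cells, at -0.32 (adjusted p 0.104, and 0.0191 without control replicate 3). With a library left out the medians of these families changed sign, from -0.017 to 0.019 for RB and E2F and from -0.091 to 0.077 for DREAM and MuvB.

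The 22 genes of replication and mitosis listed as RB-E2F targets all had log2 fold changes below 0 (22 of 22, against 50.1% of all genes). The values ran from -0.27 to -0.00013, with a median of -0.12. Whether E2F drives each gene in these cells was not tested. By DESeq2, limma-voom and log2 FPKM, and with other scalings or count filters, 21 of 22 were below 0. Many genes of this list varied together, so the 22 signs are not separate observations. TOP2A and CCNB1, for example, were both highest in control replicate 3 (239.8 and 129.7 CPM) and next in PDZK1 replicate 2 (229.0 and 126.3 CPM). RRM2 and MCM6 did not follow this pattern, and control replicate 3 was their lowest control library (76.8 and 54.3 CPM). Of the 22, 1 passed the threshold (4.55%, against 3.83% of all genes tested). MCM6, a subunit of the replicative helicase, fell from 55.1, 60.2 and 54.3 CPM in control to 46.8, 46.8 and 47.2 CPM in PDZK1 libraries. It fell by 0.27 on the log2 scale (SE 0.054, edgeR adjusted p 0.0278), a call kept without control replicate 3 and lost without each of the other 5 libraries (adjusted p 0.0555 to 0.116), and lost on log2 FPKM (0.0923 to 0.106). The direction of the list rested partly on control replicate 3. Without that library 12 of 22 were below 0 and the median was -0.038. With other libraries left out 18 to 22 of 22 were below 0 and the median ran from -0.21 to -0.063.

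Beside the markers, the 9 lysosomal partners of GLB1 (0 called) had 7 values above 0 and a median of 0.018 (0.013 to 0.037 with a library left out), opposite in sign to GLB1 at -0.15. CTSA, the protective protein that forms a complex with β-galactosidase in the lysosome, was at 699, 682.5 and 676 CPM in control and 746, 721 and 756 CPM in PDZK1 libraries. Its groups did not overlap, and its log2 fold change was 0.11 (SE 0.036, adjusted p 0.138). The 11 nuclear lamina genes (0 called) had a median of -0.014 (-0.032 to 0.0057 with a library left out), and SUN2, which links the lamina to the cytoskeleton, was at 0.14 (SE 0.036, adjusted p 0.0628, and 0.0430 with library totals only), with 89.3 to 90.8 CPM in control and 98.6 to 101.2 CPM in PDZK1 libraries. Genes on the opposite strand overlap CCND1 (LTO1), CTSA (PLTP and NEURL2) and SUN2 (GTPBP1), and DNAL4 overlaps SUN2 on its own strand.

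The list of HMG chromatin proteins, which groups HMGB, HMGA and HMGN genes by name, had 2 of 7 called (28.6%, against 3.83% of all genes tested). Both were HMGN genes and lower, and the median was -0.17. The HMGB genes in it, HMGB2 (-0.24, edgeR adjusted p 0.219) and HMGB3 (-0.17, adjusted p 0.172), lay below 0 and were not called. Of the 7 values, 4 lay below 0 and 3 above. HMGN1, a nucleosome-binding protein, was at 182, 179 and 174 CPM in control and 164, 152 and 156 CPM in PDZK1 libraries and fell by 0.18 on the log2 scale (SE 0.038, edgeR adjusted p 0.0304). HMGN2, its close relative, was at 229, 238 and 246 CPM against 206, 217 and 201 CPM and fell by 0.19 (SE 0.041, adjusted p 0.0337). Neither gene's groups overlapped. The call of HMGN1 was kept only without control replicate 3 (adjusted p 0.0619 to 0.143 without each of the other 5), and that of HMGN2 was lost without control replicates 1 and 2 and PDZK1 replicates 1 and 3 (0.0508 to 0.161). With all 6 libraries HMGN2 also missed the threshold by limma-voom (0.0529), the non-robust fit (0.0503) and log2 FPKM (0.115 to 0.124), and HMGN1 by log2 FPKM (0.187 to 0.212). GENCODE numbers 31 pseudogenes of HMGN1 and 36 of HMGN2, so both counts are uncertain, as for HMGB1.

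The receptors of secreted HMGB1 showed the widest spread of these lists, with 2 of 4 called (50.0%, against 3.83% of all genes tested). Values lay above 0 for 2 and below 0 for 2, so the median of 0.26 (0.16 to 0.33 with a library left out) describes no common shift. AGER, at 2.61 CPM in control and 2.56 CPM in PDZK1 libraries, was at -0.032 on the log2 scale (edgeR adjusted p 0.967). TLR4, the innate receptor that HMGB1 activates, was at 25.1, 25.5 and 22.7 CPM in control and 36.9, 34.5 and 36.8 CPM in PDZK1 libraries. It rose by 0.56 on the log2 scale (SE 0.064, edgeR adjusted p 0.00157), the largest rise among the 115 genes. SDC1, the cell-surface proteoglycan syndecan-1, rose from 58.8, 59.3 and 73.2 CPM to 90.2, 102.5 and 87.7 CPM, or by 0.55 on the log2 scale (SE 0.10, edgeR adjusted p 0.0303). TLR4 kept its call with each of the 6 libraries left out in turn and lost it on log2 FPKM, with a log2 fold change of 0.37 and adjusted p of 0.0825 at a pseudocount of 1, 0.46 and 0.0827 at 0.1, and 0.37 and 0.118 without the filter on low values. SDC1 kept it without control replicate 3 and lost it without each of the other 5 libraries (adjusted p 0.0672 to 0.121), and on log2 FPKM it lost it only without the filter (0.0797). TLR2, named for its size after its values were seen, was low at 0.939 to 1.46 CPM in control and 0.366 to 0.473 CPM in PDZK1 libraries, with a log2 difference of -1.41 (SE 0.34, edgeR adjusted p 0.0542).

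**Figure D5:**
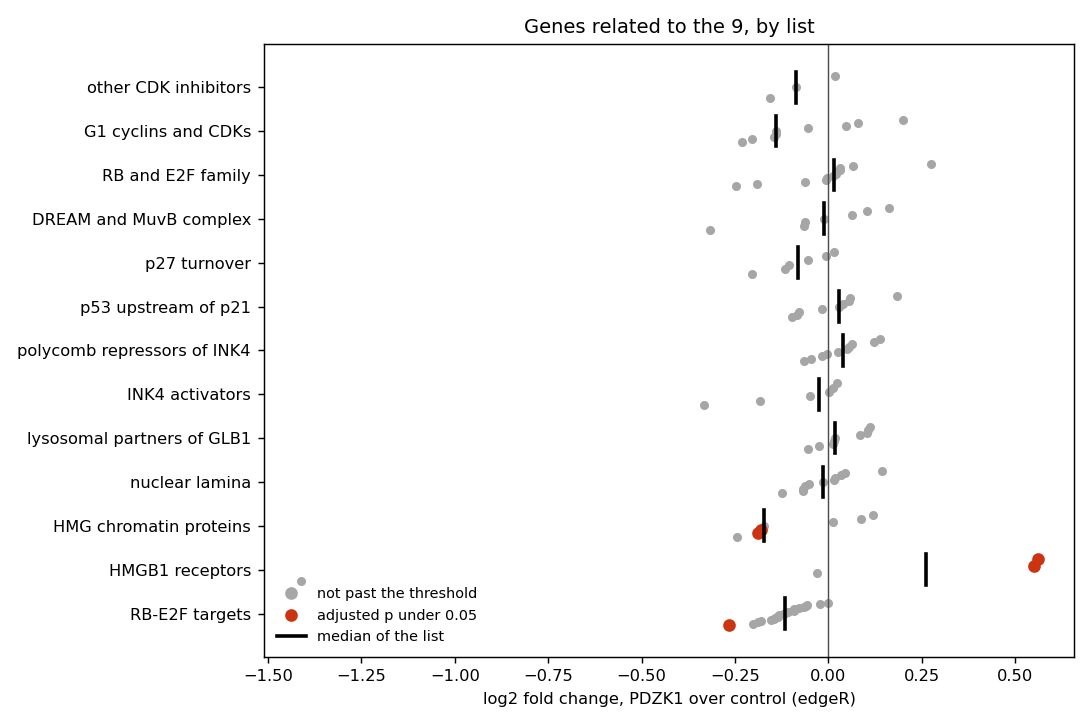
Log2 fold change (PDZK1 over control, edgeR) of each tested gene of the 13 lists (rows), red where the adjusted p is under 0.05, with the median of each list as a black bar. Red points stand in the HMG proteins (2), HMGB1 receptors (2) and E2F targets (1), and the E2F targets all lie below 0 (21 of 22 with library totals only).

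By position, the 10 tested genes around each member, 5 on each side, had median log2 fold changes from -0.046 beside CDKN2C to 0.067 beside HMGB1. For CDKN1A the median was 0.016 (-0.0038 to 0.047 with a library left out) against 0.13 for the gene itself, and for GLB1 it was 0.026 (-0.030 to 0.041) against -0.15. Of all these neighbours 1 passed the threshold, where 3.83% of all genes tested did. It was FBN2, a fibrillin gene of the extracellular matrix and 1 of the 10 around LMNB1, at -0.31 (edgeR adjusted p 0.000895). FBN2 lies about 1481 kb from LMNB1 on the same arm.

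Over the 6 libraries, the gene most like each member was found as the smallest root mean square difference in log2 CPM centred on each gene's mean, among about 9985 genes of at least 10 CPM. CDKN1A was most like AKAP8 (0.0198 log2 units) and CDKN2A most like HAUS2 (0.0559). For CDKN2B it was ZYX (0.0137), for CDKN1B HPCAL1 (0.0202) and for CDKN2C PRR12 (0.0521). RB1 was closest to RHOA (0.0147), GLB1 to FADS1 (0.0196), LMNB1 to MIF (0.0153) and HMGB1 to COPS2 (0.00921). FADS1, like GLB1, was called by edgeR once control replicate 3 was left out (adjusted p 0.00374). That likeness follows largely from how FADS1 was picked and is no separate result. No member was the nearest gene of another. CDKN2A, with a mean under 10 CPM, was not among the genes searched, so it could be neither nearest to another member nor ranked. The best-placed other member among the genes searched ranked between 238 for CDKN2C and 4000 for GLB1.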

How the data were processed

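RNA sequencing libraries of ARPE-19 cells (3 control, 3 PDZK1) were analysed. The authors deposited estimated counts as whole numbers per gene and library, read here as estimates because the table holds assembled loci, and FPKM deposited by the authors, scaled by transcript length and library. The submitters' processing notes name fastp 0.20.1, HISAT2 2.2.1 and GRCh38; the counting program and strandedness are not given in the sources used here. Each table also holds 3 columns of per-sample values that match no sample, which were not used.

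Of 21314 entries, 20461 carry an Ensembl identifier (20229 matched GENCODE 29, the source of coordinates), and 853 assembled loci were left out of the test. Counts were tested with edgeR 4.0.16 in R 4.3.3 (filterByExpr, TMM, robust quasi-likelihood), 2-sided, adjusted over 13645 genes, with no covariate. CPM use TMM-scaled totals, and errors are SDs. Floors and counting errors cover counting only. Libraries of a group differed beyond counting error (chi-square per degree of freedom 6.55 to 18.8). Shared sequence was counted as identical stretches of 50 bases in GENCODE transcripts.

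The 9 genes and the 13 lists were chosen with earlier results of these data known. Genes named besides the 9 are those called in a list (up to 4) or, with none, its smallest p, the nearest gene in pattern, and called neighbours. Further list genes were named after their values were seen. Alternatives were DESeq2 1.42.0, limma-voom and limma 3.58.1 on log2 FPKM (pseudocounts 1 and 0.1, mean of at least 0.5, and no filter), other scalings and filters (at least 1 count, or 10 in every library), PDZK1 left out, a non-robust fit, a fold change above 1.5, the replicate number as a block, each library left out, and the assembled loci kept, the last chosen after seeing the data. The code was tested on simulated data.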

Additional observations from a re-analysis of the deposited data

How the results depend on the processing

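Low counts of CDKN2A and CDKN2C, the spread of 3 libraries a group and control replicate 3 each limit these results. The assembled loci kept were chosen after seeing the data. Of the 9 genes, DESeq2 called 1 and the fits that left out a library 0 to 2 (2 without control replicate 3), and the other alternatives 0. Over all genes the count was 522, with 793 by DESeq2 and 171 with a fold change above 1.5. On log2 FPKM it was 184 and 185 with pseudocounts of 1 and 0.1, and 185 without the filter. With a library left out it ran from 181 to 875, the highest without control replicate 3. These fits differ in samples, criteria or scale, and the cause of the differences was not tested. Of the related genes 5 passed, against 8 by DESeq2, 0 with a fold change above 1.5, 1 and 1 on log2 FPKM with the 2 pseudocounts (SDC1 and not TLR4), 0 without the filter, and 1 to 7 with a library left out.

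Under the replicate block 163 genes passed over the whole table, 0 of the 9 and 1 of the related genes (TLR4), HMGN1, HMGN2, SDC1 and MCM6 losing their calls; it changed no other call. Libraries that share a number did not deviate together (correlations over genes of -0.0462, -0.056 and -0.143), so the number gives no pairing, and this fit has fewer residual degrees of freedom.

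Values near 0 changed sign, none past the threshold. On log2 FPKM with pseudocounts of 1 and 0.1 and without the filter, CDKN2C was at 0.00358, 0.00322 and 0.00358, HAUS2 at 0.036, 0.043 and 0.036, and COPS2 at 0.035, 0.036 and 0.035. With library totals only, CDKN2C was at 0.014, HMGB1 at 0.00609 and COPS2 at 0.017, which was 0.000396 with at least 1 count. With a library left out, CDKN1B ran from -0.038 to 0.098, CDKN2C from -0.088 to 0.14, HMGB1 from -0.032 to 0.012, HPCAL1 from -0.017 to 0.11, PRR12 from -0.11 to 0.082 and COPS2 from -0.015 to 0.018. CDKN1A, CDKN2A, CDKN2B, RB1, GLB1 and LMNB1 kept their direction in the 19 alternatives computed for each.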
